A study of Homo sapiens with 6 samples.

Results

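The kinesin motor genes were analysed in polyA RNA-seq data of A549, a human cell line established from a lung adenocarcinoma. Members were the protein-coding genes of the deposited table whose symbol begins with KIF followed by a digit or by C. KIFAP3 and KIFBP (listed under its older symbol KIF1BP) bind kinesins but are not motors and were left out. This gave 42 of the 58174 listed genes. By textbook function 14 of them were taken as mitotic kinesins, 15 as transport kinesins and 13 as other kinesins, that is motors of cilia, regulators of microtubule ends and members of unclear role.

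Kinesins are ATP-driven motors that walk along microtubules or take their ends apart. Mitotic kinesins build the spindle, move and align chromosomes and help to divide the cell, and many of their genes are transcribed mainly in the G2 and M phases of the cell cycle. Transport kinesins carry vesicles, organelles and mRNA and are used by cells whether or not they divide. The comparison of both classes asks how far a difference in kinesin mRNA between the groups was shared by motors of unlike use.

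Parental A549 cells (Ctrl, 3 libraries) were compared with A549 cells that lack the MIR21 locus after CRISPR/Cas9 cleavage with a pair of guide RNAs (MIR21-KO, 3 libraries). MIR21 encodes miR-21-5p, an abundant microRNA of many tumors. All cells were kept in the same serum-containing medium and harvested 48 h after seeding. The MIR21-KO cells descended from single sorted cells, and the number of clones behind the 3 libraries is not given in the sources used here, so differences between clones and effects of the deletion cannot be told apart.

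Recovered reads summed to between 10631667 and 14345209 per library, and 3 reads on a gene of 1 kb were worth 0.219 to 0.279 FPKM (fragments per kilobase of gene length, scaled by a factor of each library). MIR21 was listed at 0 FPKM in all 6 libraries; a polyA library does not hold the mature microRNA, so this does not check the deletion. Keratin mRNA was abundant in every library, with KRT18 at 335.5 to 688.1 FPKM, while the epithelial marker EPCAM was low, at 0.389 to 1.65 FPKM. Of the leukocyte markers CD3E was listed at 0 in all 6 libraries and PTPRC in 5, whereas CD14 was at 3.19 to 5.10 FPKM. CDH1, which encodes E-cadherin, was lower in MIR21-KO cells (log2 fold change −1.48, FDR = 0.000175), as 1 of the 5 epithelial markers. Of the neuronal markers SNAP25 was called higher (log2 fold change 0.97, FDR = 0.000247), beside 7.66% of all genes tested. SYT1 (−0.16) and TUBB3 (0.34) were tested without a call. RBFOX3 and MAP2 were too low to be tested, at 14.6% and 578.9% of Ctrl, without overlap between the groups. Among fibroblast markers 2 and among leukocyte markers 1 were tested, and none was called. No endothelial marker was expressed highly enough to be tested.

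The summed level of kinesin mRNA was lower in MIR21-KO cells, while few single members passed the test. The FPKM of all 42 genes summed to 418.5 ± 11.7 in Ctrl and 313.1 ± 15.4 in MIR21-KO cells (SD, n = 3 each), or 74.8% of Ctrl. A mean of at least 0.5 FPKM was reached by 32 members, 12 mitotic, 11 transport and 9 other kinesins, and only these were tested. Of these 28 had a log2 fold change below 0, and their median was −0.40, whereas the median over all 16006 genes tested was −0.017. Fold changes are MIR21-KO over Ctrl on the scale of log2(FPKM + 0.1), with the standard error (SE) of the limma fit. At a false discovery rate (FDR) under 0.01, 5 kinesin genes were called lower and 1 higher. Over all genes tested, 16.0% were called, 8.38% lower and 7.66% higher, so the 6 calls among 32 kinesins lay near the background. In bulk RNA, fewer cells in mitosis and less RNA per cell cannot be told apart.

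**Figure D1:**
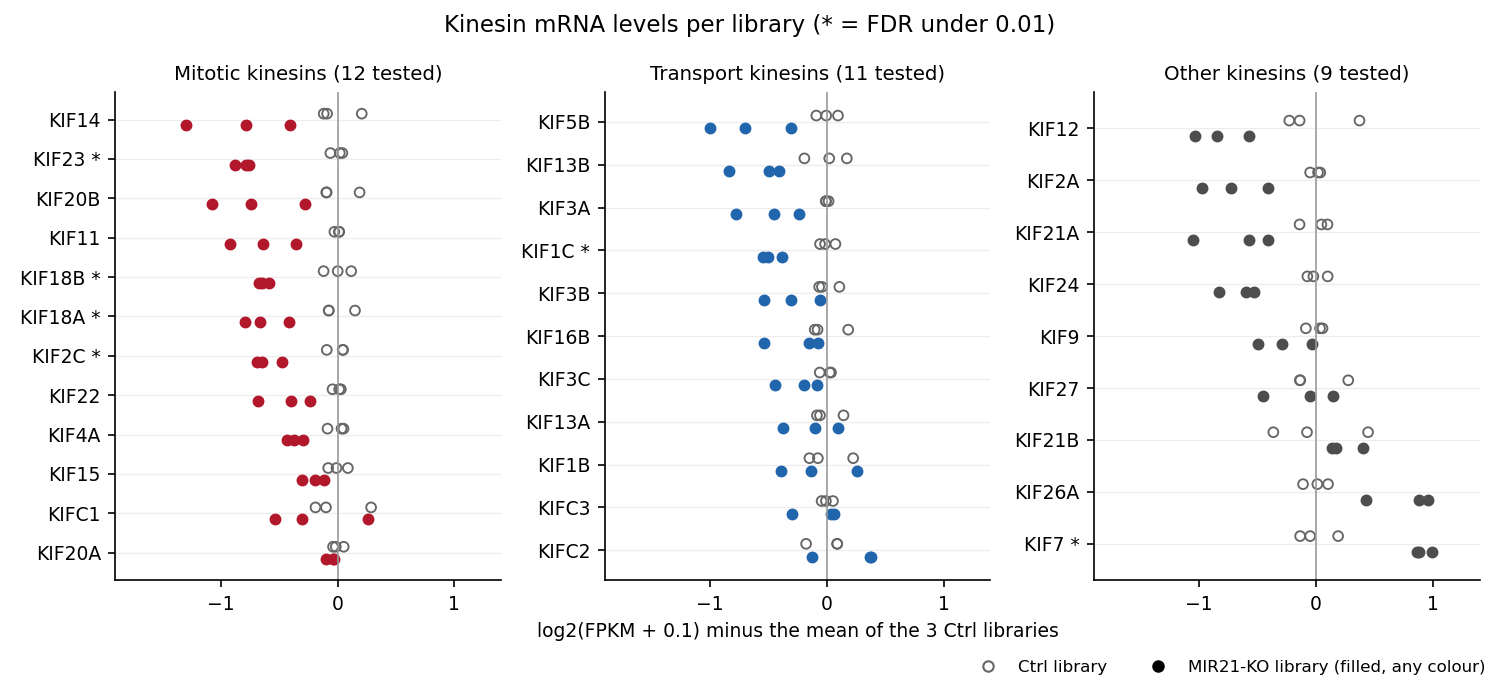
Level of each tested kinesin gene in every library, as log2(FPKM + 0.1) minus the mean of the 3 Ctrl libraries (horizontal axis, log2 units), in panels for the 12 mitotic, 11 transport and 9 other kinesins. Open circles are Ctrl and filled circles MIR21-KO libraries, and asterisks mark an FDR under 0.01; the MIR21-KO libraries lie apart from the Ctrl libraries on their left in all mitotic kinesins but KIF20A and KIFC1, whose groups overlap.

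The mitotic kinesins were lower as a class. Their FPKM summed to 218.6, 211.3 and 210.6 in Ctrl replicates 1 to 3 and to 143.8, 152.2 and 153.3 in MIR21-KO replicates 1 to 3. The groups did not overlap, and the MIR21-KO mean was 70.1% of the Ctrl mean. All 12 tested mitotic kinesins had a log2 fold change below 0, from −0.83 to −0.06 with a median of −0.61. The median was −0.62 with median-ratio scaling and −0.65 with scaling by total reads, where the median of all genes shifted by −0.006 and −0.035. The FDR was under 0.01 for 4 of the 12, beside 8.38% of all genes called lower, and under 0.05 for 9, where 16.8% of all genes were lower at an FDR under 0.05. In 10 of the 12 every MIR21-KO value lay below every Ctrl value; such a lack of overlap, in either direction, held for 48.1% of all genes tested.

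KIF23 (ENSG00000137807, chromosome 15, 69414246 to 69448427, GRCh38) encodes the motor of centralspindlin, the complex that gathers microtubules at the midzone and prepares cytokinesis. Its level was 33.4, 33.9 and 31.6 FPKM in Ctrl and 17.9, 19.1 and 19.5 FPKM in MIR21-KO libraries. All MIR21-KO values were close to each other and well below every Ctrl value. The mean fell to 57.2% of Ctrl (log2 fold change −0.80 ± 0.070, FDR = 0.000470). The call was kept in each of the 18 alternative settings in which KIF23 was fitted, including the omission of any library, with FDRs from 6.71e-05 to 0.00868.

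KIF18B (ENSG00000186185, chromosome 17, 44924709 to 44947711) and KIF2C (ENSG00000142945, chromosome 1, 44739818 to 44767767) both act on the plus ends of microtubules, where KIF2C, also known as MCAK, removes tubulin. KIF18B was at 19.5, 17.9 and 21.1 FPKM in Ctrl and at 12.4, 12.97 and 12.2 FPKM in MIR21-KO libraries, without overlap and with less spread in MIR21-KO. It fell to 64.2% of Ctrl (log2 fold change −0.63 ± 0.083, FDR = 0.00221). KIF2C was at 21.0, 21.1 and 19.1 FPKM in Ctrl and at 14.6, 12.6 and 12.98 FPKM in MIR21-KO libraries, again without overlap. It fell to 65.8% of Ctrl (log2 fold change −0.60 ± 0.086, FDR = 0.00308). The call of KIF18B was lost without Ctrl replicate 1, Ctrl replicate 3 or MIR21-KO replicate 2 (FDR over all settings 0.000678 to 0.0203). That of KIF2C was lost without any Ctrl replicate or MIR21-KO replicate 2 (0.000760 to 0.0209). Both calls were also lost with a replicate block, which treats same-numbered libraries of the groups as pairs.

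KIF18A (ENSG00000121621, chromosome 11, 28020620 to 28108308) damps the movement of chromosomes so that they align at the spindle equator. It was at 15.6, 13.3 and 13.4 FPKM in Ctrl and at 8.10, 8.85 and 10.6 FPKM in MIR21-KO libraries. MIR21-KO replicate 3 came nearest to Ctrl but stayed below all of its values. KIF18A fell to 65.0% of Ctrl (log2 fold change −0.62 ± 0.121), with an FDR of 0.00978 just under the threshold. When 1 library was left out, its call was kept only without MIR21-KO replicate 3 (FDR over all settings 0.00206 to 0.0461). It was also lost with no filter on low values (FDR = 0.0209) and with scaling by total reads (0.0129). Further losses came without trend or robust fitting (0.0208) and with a replicate block (0.0398).

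**Figure D2:**
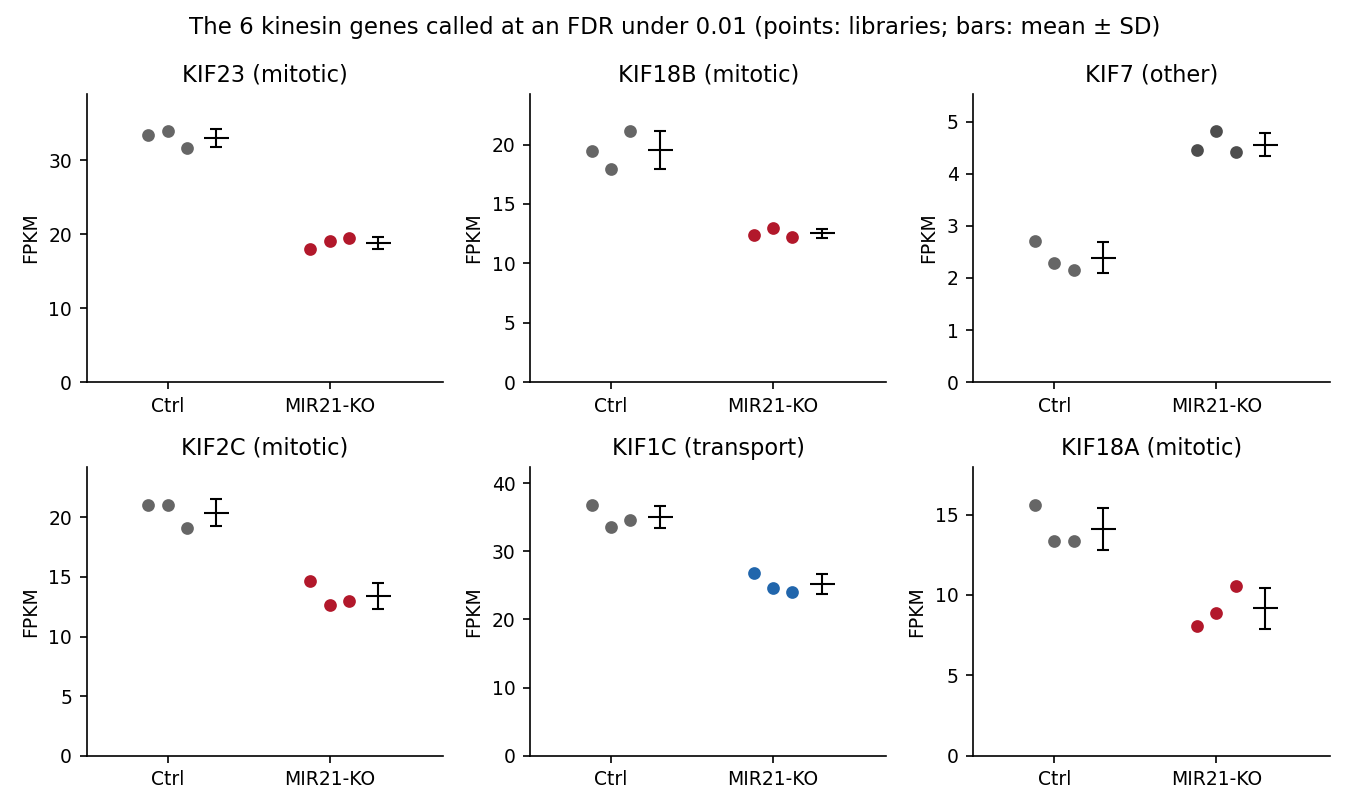
FPKM (vertical axes, from 0) of the 6 kinesin genes called at an FDR under 0.01, with 1 point per library and the mean ± SD of each group (n = 3) beside the points. In KIF23, KIF18B, KIF2C, KIF1C and KIF18A every MIR21-KO library is below every Ctrl library, and in KIF7 every one is above.

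Several mitotic kinesins whose means were lower by a similar share were not called, and in most of them the MIR21-KO libraries were further apart. KIF11, the motor that pushes spindle poles apart and the third most abundant mitotic kinesin, was at 27.5, 26.8 and 27.6 FPKM in Ctrl and at 14.4, 17.5 and 21.3 FPKM in MIR21-KO libraries. The groups did not overlap and the mean was 65.0% of Ctrl, with an FDR of 0.0144. KIF22, a motor on chromosome arms, was at 27.2, 28.6 and 28.3 FPKM in Ctrl and at 23.8, 21.2 and 17.4 FPKM in MIR21-KO libraries (74.3%, FDR = 0.0317). Replicate 3 was thus the highest MIR21-KO library for KIF11 and the lowest for KIF22. KIF14 and KIF20B, which act in the last steps of cytokinesis, were at 57.2% (FDR = 0.0318) and 62.6% (FDR = 0.0415) of Ctrl. KIF4A, which binds chromosomes and shortens the central spindle together with PRC1, was at 77.4% (FDR = 0.0115). In each of these 3 genes the groups did not overlap.

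The other 3 tested mitotic kinesins had smaller differences. KIF20A, which brings the chromosomal passenger complex to the midzone and is shown in full after its values had been seen, was at 21.6, 20.6 and 20.3 FPKM in Ctrl and at 20.2, 20.3 and 19.4 FPKM in MIR21-KO libraries, 96.1% of Ctrl with overlapping groups (FDR = 0.542). KIF15, which can stand in for KIF11 in holding the poles apart, was at 86.5% without overlap (FDR = 0.167). KIFC1, which walks to the minus end and clusters spindle poles, was at 88.8% with overlap (FDR = 0.553). None of these 3 was called in any alternative setting. As a ratio of levels within each library, chosen after the values had been seen, KIF23 over KIF20A was 1.58 ± 0.055 in Ctrl and 0.943 ± 0.058 in MIR21-KO cells (SD, n = 3 each), without overlap. Both motors act in cytokinesis, so motors of the same step differed in their change.

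Promoters of mitotic genes often carry the cell cycle homology region, TTTGAA, and CCAAT boxes; the former is read by the MuvB complexes, which hold such genes silent in resting cells and activate them in late phases of the cycle together with B-MYB (MYBL2) and FOXM1. RefSeq promoters (GRCh38.p14, 250 bases before to 50 bases after the start) matched 34 of 42 members by symbol and were searched for both motifs on either strand. TTTGAA was present in 10 of 14 mitotic promoters (71.4%), in 1 of 11 transport promoters (9.09%) and in 0 of 9 other promoters, and in 10.2% of the promoters of all tested genes. CCAAT was present in 11 of 14 mitotic (78.6%), 3 of 11 transport (27.3%) and 3 of 9 other promoters (33.3%), and in 34.6% of those of all tested genes. These counts take 1 promoter per kinesin, but each promoter sequence for all tested genes. Over all promoters of each kinesin, CCAAT was found in the transport kinesins KIF1B, KIF3B, KIF5B and KIF5C, and 7 of 11 held neither motif. Counted in this way, both motifs were found in 9 mitotic kinesins and 1 transport kinesin. Both lay in a single sequence in 4.07% of the promoters of all tested genes. No occurrences of the 2 motifs shared a base in kinesin promoters. The 11 occurrences of TTTGAA in mitotic promoters began between 55 bases before the start (−55) and base 30 counted from it. The windows below lie before the RefSeq start of 3 mitotic kinesins with clearly lower means (KIF23, KIF18A and KIF11), of KIF15 with a smaller difference and of the single transport kinesin with a match; they run 5′ to 3′ along the strand of the gene, with the motif or its reverse complement in capitals.
KIF23 (plus strand, chr15:69414282-69414311): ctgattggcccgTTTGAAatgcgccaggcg
KIF18A (minus strand, chr11:28108157-28108186): gctgaggaaagtggcttgggTTTGAAtatt
KIF11 (plus strand, chr10:92593090-92593119): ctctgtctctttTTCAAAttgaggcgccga
KIF15 (plus strand, chr3:44761747-44761776): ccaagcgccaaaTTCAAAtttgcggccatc
KIF5B (minus strand, chr10:32056548-32056577): agtgcagtaaaaTTTGAAtctgcgaccccg

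The motif did not separate the mitotic kinesins that were called from those that were not. KIF23, KIF18A and KIF18B held TTTGAA and were called lower, whereas KIF2C was called lower and its window held neither motif. KIF15 and KIFC1 held TTTGAA and were not called. KIF20A and KIF22 held CCAAT and no TTTGAA. These are matches of letters within a fixed window and not measured binding.

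The transport kinesins were lower by less at the median. Their FPKM summed to 180.3, 168.0 and 172.5 in Ctrl and to 129.3, 138.9 and 144.9 in MIR21-KO replicates 1 to 3. The groups did not overlap and the MIR21-KO mean was 79.3% of Ctrl. Of the 11 tested transport kinesins 10 had a log2 fold change below 0, with a median of −0.25 and a range from −0.67 to 0.21. A single gene (1 of 11) was called, lower, where 8.38% of all genes were, so this count lay near the background. At an FDR under 0.05, 4 were lower, and the groups did not overlap in 5. The last 2 counts stand beside the 16.8% and 48.1% found over all genes tested.

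KIF1C (ENSG00000129250, chromosome 17, 4997948 to 5028401), a fast carrier of secretory vesicles, was the transport kinesin called. It was at 36.8, 33.6 and 34.6 FPKM in Ctrl and at 26.8, 24.7 and 24.0 FPKM in MIR21-KO libraries. The values of each group lay close together and did not overlap. KIF1C fell to 71.8% of Ctrl (log2 fold change −0.48 ± 0.076, FDR = 0.00455). The call was lost without any Ctrl replicate or MIR21-KO replicate 2 and when the trend on gene length was removed. With a replicate block and without trend or robust fitting it was lost too (FDR over all settings 0.000656 to 0.0298).

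KIF5B (ENSG00000170759, chromosome 10, 32009010 to 32056431), the heavy chain of conventional kinesin that carries mitochondria, lysosomes and mRNA, had the highest level of the family in Ctrl. It was at 47.9, 42.1 and 44.7 FPKM in Ctrl and at 22.4, 27.6 and 36.2 FPKM in MIR21-KO libraries. Every MIR21-KO value was below every Ctrl value, but MIR21-KO replicate 1 was far below replicate 3. The mean was 64.0% of Ctrl (log2 fold change −0.67 ± 0.171, FDR = 0.0253), and without MIR21-KO replicate 3 the gene was called (FDR over all settings 0.00246 to 0.0881). KIFC3, a minus-end motor that works at cell junctions and the Golgi apparatus, was at 31.5, 33.7 and 32.3 FPKM in Ctrl and at 33.9, 33.2 and 26.3 FPKM in MIR21-KO libraries, so that the groups overlapped (95.8%, FDR = 0.665).

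Of the motors of heterotrimeric kinesin, which drives transport within cilia, KIF3A was at 71.6% of Ctrl without overlap (FDR = 0.0413), KIF3B at 81.8% with overlap (FDR = 0.129) and KIF3C at 84.8% without overlap (FDR = 0.125). KIF13B, a carrier of membrane receptors, was at 66.0% without overlap (FDR = 0.0367). The groups overlapped in KIF13A (91.9%), KIF16B (84.0%), KIF1B (94.7%) and KIFC2 (116.7%), with FDRs from 0.250 to 0.753. KIFC2 shares 17.8% of its exon bases with FOXH1 on the opposite strand, and the strand setting of the counting is not given in the sources used here.

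KIF7 was the only kinesin called higher. KIF7 (ENSG00000166813, chromosome 15, 89608789 to 89655451) sits at the tip of the primary cilium and regulates Hedgehog signalling. It was at 2.72, 2.29 and 2.15 FPKM in Ctrl and at 4.45, 4.82 and 4.41 FPKM in MIR21-KO libraries. All MIR21-KO values were above all Ctrl values. KIF7 rose to 191.2% of Ctrl (log2 fold change 0.91 ± 0.123, FDR = 0.00243). Its call was lost with a replicate block and without Ctrl replicate 2, Ctrl replicate 3 or MIR21-KO replicate 2 (FDR over all settings 0.000484 to 0.0186). Of its exon bases 11.8% are shared with TICRR on the opposite strand. TICRR moved the other way, with a log2 fold change of −0.78 ± 0.147 (FDR = 0.00855).

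KIF2A, which takes microtubules apart at spindle poles and in neurites, shares 8.97% of its exon bases with IPO11 on the same strand. How reads there were counted is not given in the sources used here. KIF2A was the most abundant of the other kinesins. It was at 15.01, 14.3 and 15.2 FPKM in Ctrl and at 7.50, 8.90 and 11.2 FPKM in MIR21-KO libraries, without overlap (61.9%, FDR = 0.0112). KIF21A, which restrains the growth of microtubules at the cell cortex, was at 4.82, 4.07 and 4.65 FPKM in Ctrl and at 2.11, 2.99 and 3.35 FPKM in MIR21-KO libraries, without overlap (62.4%, FDR = 0.0297). As in KIF5B and KIF11, MIR21-KO replicate 1 was the lowest and replicate 3 the highest of the MIR21-KO libraries in both. KIF24, which holds back the assembly of cilia, was at 62.6% (FDR = 0.0109) and KIF12 at 52.2% (FDR = 0.0529), both without overlap, the latter on 19 to 60 reads per library. KIF26A, a member without motor activity, was at 175.3% without overlap (FDR = 0.0186). The groups overlapped in KIF9 (82.5%), KIF27 (92.1%) and KIF21B (118.2%).

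The 10 members below 0.5 FPKM were not tested. KIF2B and KIF19 were listed at 0 in all 6 libraries, where a level worth 3 reads would be 0.0948 to 0.121 FPKM for KIF2B and 0.0389 to 0.0495 FPKM for KIF19. A listed 0 need not mean absence in this table, since all 37 mitochondrial genes were also at 0 throughout. KIF4B, a near-identical copy of KIF4A whose reads could come from either gene, had 5 to 10 reads per library. KIF1A, KIF5C, KIF6 and KIF17 had 0 to 19 reads per library, and their groups overlapped. In 3 of the 10 the groups did not overlap, each with more reads in MIR21-KO, which is not above the 48.1% without overlap among tested genes; these 3 were chosen after their values had been seen. KIF5A, the neuronal form of conventional kinesin, had 2, 3 and 4 reads in Ctrl and 18, 14 and 23 in MIR21-KO libraries. KIF26B had 1, 0 and 2 reads in Ctrl and 15, 10 and 10 in MIR21-KO libraries. KIF25 had 11, 6 and 5 reads in Ctrl and 19, 21 and 14 in MIR21-KO libraries.

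As shares of kinesin FPKM, the mitotic class held 51.0% ± 0.558 in Ctrl and 47.8% ± 0.750 in MIR21-KO cells, and the transport class 41.5% ± 0.367 and 44.0% ± 0.465 (SD, n = 3 each). The groups did not overlap in either share. The shares thus moved by far less than the sums of both classes. The other kinesins summed to 31.4 ± 1.51 FPKM in Ctrl and 25.7 ± 2.44 FPKM in MIR21-KO cells, 81.8% of Ctrl.

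**Figure D3:**
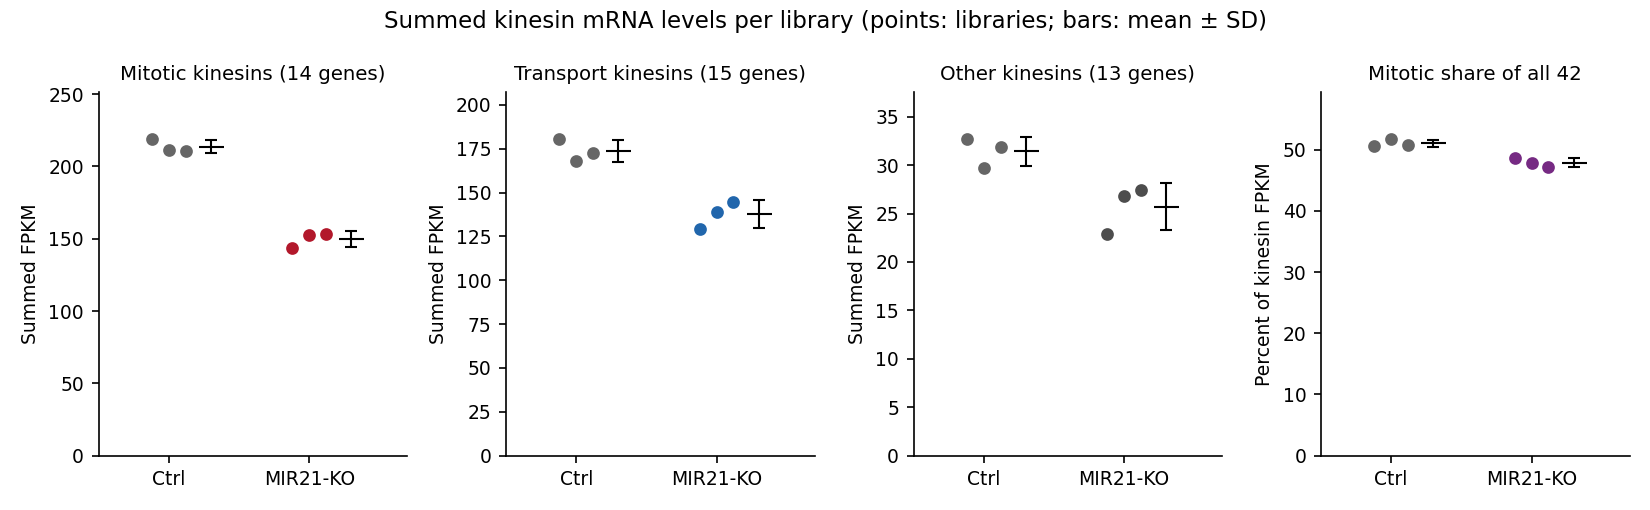
FPKM summed over the 14 mitotic, 15 transport and 13 other kinesins, and the percentage of the FPKM of all 42 genes held by the mitotic class (vertical axes, from 0). Points are libraries and bars the mean ± SD (n = 3); the groups do not overlap in any panel, and the mitotic sum is 70.1%, the transport sum 79.3% of Ctrl.

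The mRNAs of most proteins that work with the mitotic kinesins were also lower. Of 13 such genes 10 were called lower and 0 higher, against 8.38% called lower among all genes tested, with a median log2 fold change of −0.65 and all 13 below 0. At a minimum mean of 5 FPKM 10 were again called lower, where 25.9% of the genes tested were called in either direction. The largest changes were those of ECT2, the exchange factor that centralspindlin recruits to start furrowing (−1.34 ± 0.145, FDR = 0.00111), AURKA, the spindle pole kinase (−1.16 ± 0.074, FDR = 0.000157), PLK1, a kinase of spindle and midzone (−1.05 ± 0.082), and INCENP, the scaffold of the chromosomal passenger complex (−1.004 ± 0.090). RACGAP1, the partner of KIF23 in centralspindlin and named here after its values had been seen, was at −0.44 ± 0.064 (FDR = 0.00318). The fall of KIF23 thus came with a fall of both its partner and the factor they recruit. Of 14 regulators of mitotic transcription 3 were called lower, beside 8.38% of all genes tested. These were LIN9 of the MuvB core (−1.07 ± 0.159), MYBL2 (−0.85 ± 0.102) and FOXM1 (−0.76 ± 0.093). The 14 had a median of −0.29, and 12 were below 0. Among those not called were RBL1 (−0.83, FDR = 0.0187), which fell by more than FOXM1, and RBL2 (0.16). LIN37 (0.35), LIN52 (−0.31), LIN54 (−0.42), RBBP4 (−0.29), NFYA, NFYB and NFYC were not called either. CENPE, a mitotic kinesin without a KIF symbol, was tested and not called (−0.52 ± 0.136, FDR = 0.0270), while STARD9 was too low to be tested.

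Partners of transport kinesins did not follow this pattern. Of 15 genes 2 were called higher and 0 lower, beside 7.66% and 8.38% of all genes, with a median log2 fold change of 0.12. KIFAP3, which joins KIF3A and KIF3B to cargo, was at 4.53, 4.17 and 4.79 FPKM in Ctrl and at 7.11, 6.83 and 7.57 FPKM in MIR21-KO libraries (0.66 ± 0.094, FDR = 0.00292). It was higher in every MIR21-KO library, where both of its motors had means below Ctrl. MAPK8IP3, an adaptor of conventional kinesin, was the other gene called (0.66 ± 0.081, FDR = 0.00174). Of 16 tested genes of dynein and dynactin, the motor that runs towards the minus end, 1 was called lower, DYNC1LI1 (−0.51 ± 0.078), and the median was −0.006. Both counts lay near the background. The medians of the transport partners and of the dynein genes were thus closer to that of all genes tested than that of the mitotic partners, although differences between these lists were not tested. The counts of both partner lists fell or rose with those over all genes when a library was left out: without any Ctrl replicate or MIR21-KO replicate 2, 5 mitotic and 0 transport partners were called, and without MIR21-KO replicate 3 there were 10 and 4. Regulator calls numbered 0, 1 and 0 without Ctrl replicates 1, 2 and 3 and 1 without MIR21-KO replicate 2; the dynein call was lost without each of these 4 libraries and 4 genes were called without MIR21-KO replicate 3.

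**Figure D4:**
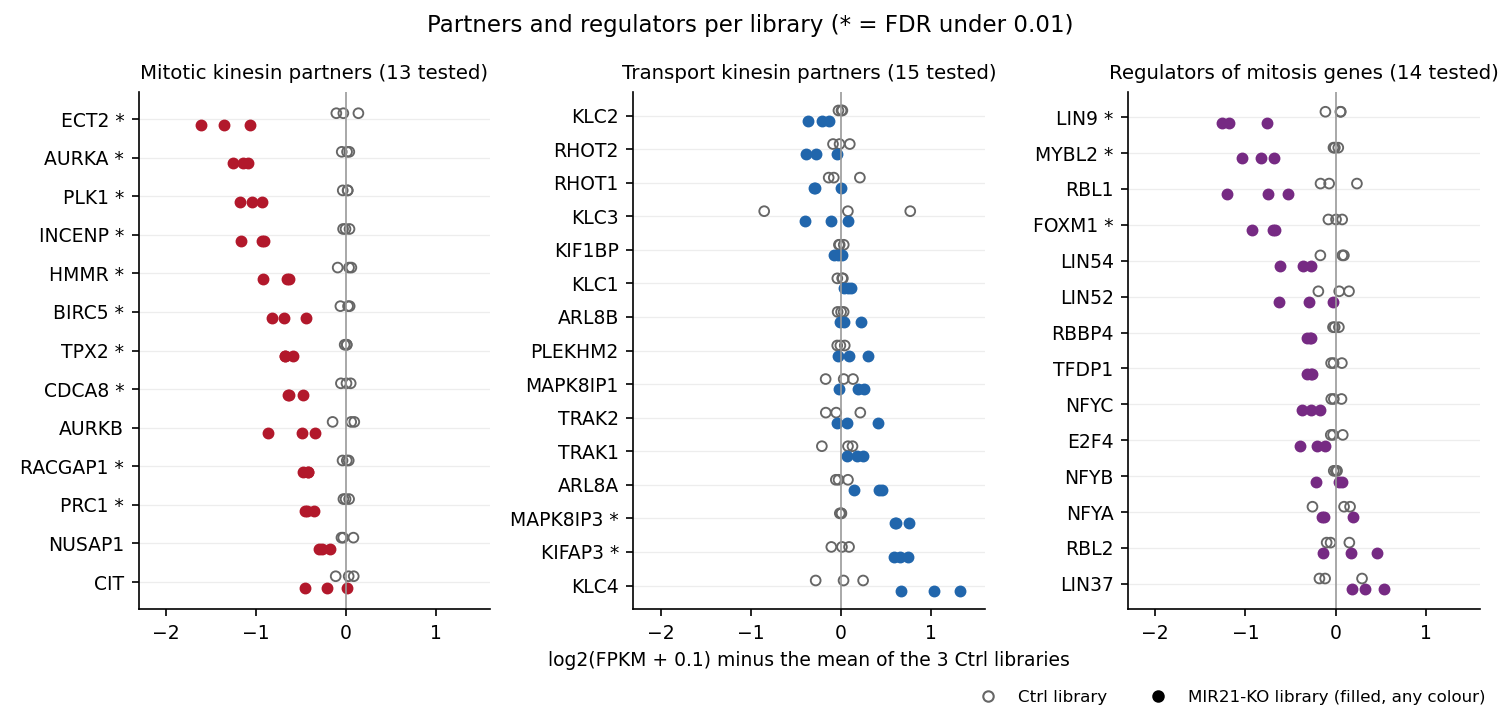
Level of partner and regulator genes in every library, as log2(FPKM + 0.1) minus the mean of the 3 Ctrl libraries (horizontal axis, log2 units); open circles are Ctrl and filled circles MIR21-KO libraries, and asterisks mark an FDR under 0.01. Of the 13 mitotic partners 10 are called lower, of the 15 transport partners 2 higher and of the 14 regulators 3 lower.

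Some genes that mark dividing cells were called lower alongside the mitotic kinesins. Of 6 proliferation markers 3 were called lower, beside 8.38% of all genes, namely CCNB1 (−1.13 ± 0.077), CCNA2 (−0.54 ± 0.074) and CDK1 (−0.49 ± 0.089). MKI67, TOP2A and PCNA were not called (FDR from 0.0110 to 0.0734), and all 6 had a log2 fold change below 0 with a median of −0.54 and no overlap between the groups. Their summed level was 697.1 to 716.8 FPKM in Ctrl and 500.8 to 502.7 FPKM in MIR21-KO libraries. A single gene (1 of 6) was called without any Ctrl replicate or MIR21-KO replicate 2, 2 without MIR21-KO replicate 1, while omission of MIR21-KO replicate 3 gave 5 calls. The part of the share of dividing cells in the kinesin result was not tested.

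The change of a kinesin gene also went with its base composition. Across the 32 tested members, the GC content of the longest transcript and the log2 fold change had a Pearson correlation of 0.58, and over the 15955 tested genes with a known GC content one of 0.12. GC content and the log2 ratio of MIR21-KO replicate 3 to replicate 1, which compares libraries of the same group, had correlations of −0.82 and −0.28. These are correlations across genes of the same libraries and genes are not independent replicates. KIF14 and KIF20B (38.3% and 34.2% GC) were higher in replicate 3 than in replicate 1 by 0.89 and 0.80 on the log2 scale, whereas KIF22 and KIFC2 (58.9% and 68.1% GC) were lower by −0.45 and −0.50. KIF23 and KIF18B differed little between these replicates (0.12 and −0.03). When the trends on GC content and length were removed from each library, a setting chosen after seeing the data, 16 kinesins were called, 14 lower and 2 higher, while the calls over all genes rose from 16.0% to 24.7%. Among these were 9 mitotic kinesins, KIF11, KIF14, KIF20B, KIF22 and KIF4A in addition to the 4 above, and the median of the mitotic class became −0.49 and that of the transport class −0.29. Without MIR21-KO replicate 3 there were 13 calls, without MIR21-KO replicates 1 or 2 there were 5 and 1, and without Ctrl replicates 1, 2 or 3 there were 2, 2 and 1. The calls over all genes moved in the same way, with 21.2% called when MIR21-KO replicate 3 was omitted, 13.7% and 4.798% for MIR21-KO replicates 1 and 2, and 5.45% to 5.76% for a Ctrl replicate.

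**Figure D5:**
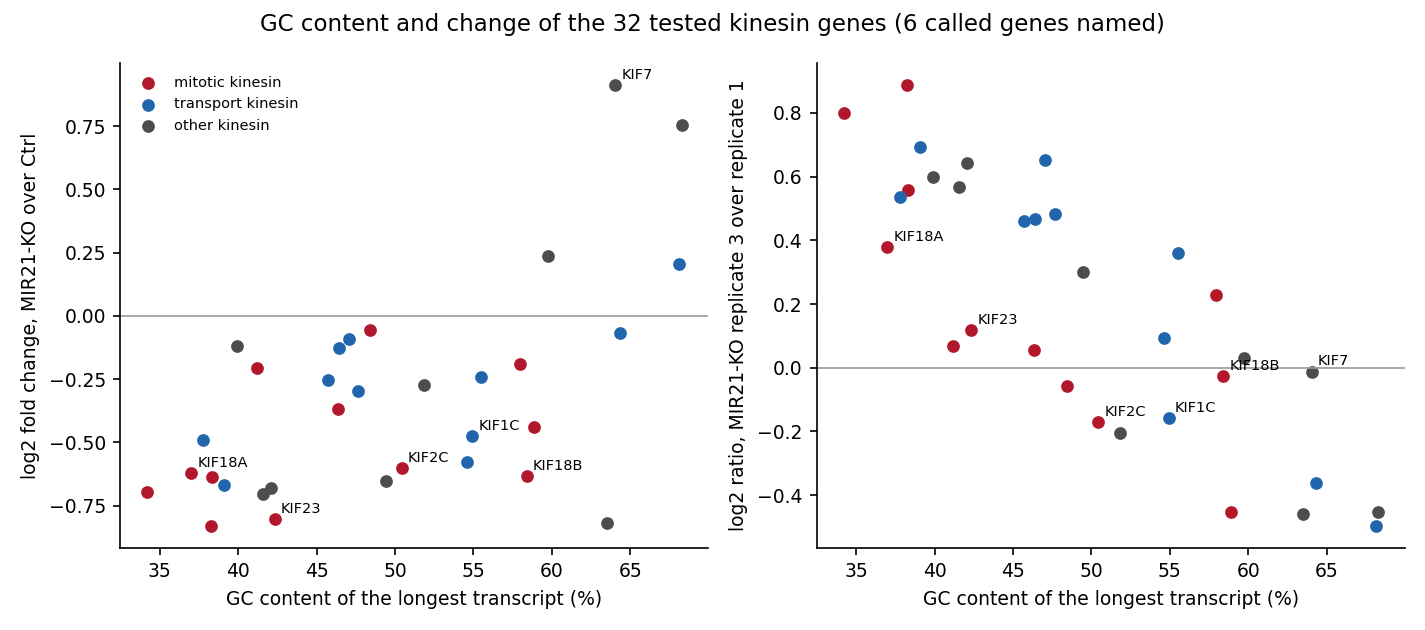
GC content of the longest annotated transcript (horizontal axes, percent) of the 32 tested kinesin genes against the log2 fold change of MIR21-KO over Ctrl (left) and the log2 ratio of MIR21-KO replicate 3 to replicate 1 (right). Colours mark the mitotic, transport and other class and the 6 called genes are named; GC-poor members lie lower on the left and higher on the right (Pearson r = 0.58 and −0.82, across genes).

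Finally, the members were searched for sites of the deleted microRNA, whose seed (bases 2 to 8, in capitals) is shown because pairing to it marks direct targets, which would be released upon deletion.
hsa-miR-21-5p (plus strand, chr17:59841273-59841294, GRCh38.p14, sequence from RefSeq): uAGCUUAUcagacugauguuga
In the longest annotated 3′ UTR of each gene (GENCODE 29), a match of at least 7 bases (the complement of bases 2 to 8, or of bases 2 to 7 followed by A) was found in 0 of the 32 tested kinesins and in 15.1% of the 11657 tested protein-coding genes with a 3′ UTR. A match of 6 bases was the best site in 2 of the 32. Over the 11657 protein-coding genes, the median log2 fold change was −0.043 with a match of at least 7 bases. It was 0.00014 where the best match was 8 bases and −0.030 with no match of 6 or more bases. These medians lay close together, but they were not adjusted for GC content. Over tested genes of any type, the 1596 lowest in GC content (25.1% to 38.6%) had a median of −0.18. The 1595 with 58.1% to 61.6% GC had one of 0.11, so this spread was wider than that between matches. The GC content of genes with a match was not compared, so these medians cannot tell whether a match marks a rise. The paper reports raised mRNA, protein and reporter activity for several targets with predicted sites. Among all 42 members, matches of at least 7 bases were found in KIF6 and KIF26B, both too low to be tested. KIF6 held a match to bases 2 to 8 and another to bases 2 to 7 followed by A. Its groups overlapped on 0 to 6 reads per library (97.7% of Ctrl). The site of KIF26B, on chromosome 1, is shown with the match to bases 2 to 8 in capitals. It was picked after the values had been seen, since the few reads of KIF26B (0 to 15 per library) were more numerous in MIR21-KO libraries. Whether any of these sites acts was not tested.
KIF26B 3′ UTR site (plus strand, chr1:245705284-245705311): ttttgacctaaATAAGCTgcaaacatgt
KIF7, the kinesin called higher, had no match of at least 7 bases in its longest 3′ UTR.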

How the data were processed

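Strand-specific polyA RNA-seq libraries of A549 cells were analysed, 3 of Ctrl and 3 of MIR21-KO cells, with groups and replicate numbers from the sample titles. A single table deposited by the authors lists, for 58174 genes, the gene length, FPKM per library and the authors' own log fold change, p-value and FDR, which were not used. The submitters' processing notes name cutadapt 1.14, HISAT2 2.1.0, SAMtools 1.5, featureCounts 1.5.3, edgeR 3.18.1 and hg38; annotation and counting settings are not given in the sources used here. Multiplied by length, the deposited FPKM are whole multiples of a step that is constant within a library, which gave back the reads (100% of values above 0 within 0.01 of a whole read). The library size implied by this step differed from the summed reads. It was 13624211 against 14345209 in MIR21-KO replicate 1 and 12971198 against 12588667 in MIR21-KO replicate 3. Scaling by total reads is therefore another scaling than that of the deposited FPKM.

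Where the mean reached 0.5 FPKM, log2(FPKM + 0.1) was tested by limma 3.58.1 (R 4.3.3, eBayes with trend and robust fitting, two-sided, no covariate), and p-values were adjusted over all 16006 by Benjamini-Hochberg. The procedure was tested on simulated data. The labels do not say whether replicates were separate cultures. The study describes 3 independent samples per group without saying how they were kept apart. The p-values measure the spread between these libraries, part of which may be technical. Floors of 3 reads cover counting error only.

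Coordinates, exons and 3′ UTRs (at least 30 bases) came from GENCODE 29 (GRCh38), matched by gene identifier for all 42 members, and promoters and the microRNA from RefSeq (GRCh38.p14). Members and gene lists were chosen with earlier results of these data known. Values in every library were given for each called kinesin and the 3 most abundant of each class (KIF20A, KIF5A, KIF25 and KIF26B were added after their values had been seen), and partner genes were named from those called, largest changes first, at most 4 per list. Some regulators that were not called were also named, after their values had been seen. Alternatives covered pseudocounts, filters, scalings, voom on recovered reads, protein-coding genes alone, limma without trend or robust fitting, a replicate block, removal of length trends (lowess, span 0.3), an FDR of 0.05 and omission of each library; joint removal of GC and length trends was chosen after seeing the data. Python 3.11.15 and matplotlib 3.10.9 were used for figures.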

Additional observations from a re-analysis of the deposited data

How the results depend on the processing

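None of the 6 called kinesins changed sign in any setting in which it was fitted. The 6 kinesin calls (4 mitotic and lower, 1 transport) became 15, 7 and 3 with voom on recovered reads, 18, 9 and 4 at an FDR under 0.05, and 16, 9 and 2 with GC and length trends removed, where the mitotic median moved from −0.61 to −0.49. Calls over all genes rose alongside, from 16.0% to 21.8%, 31.95% and 24.7%. Among protein-coding genes alone there were 12 calls, 2 of them in transport kinesins, with fewer genes tested and 27.8% of them called. At a minimum mean of 5 FPKM 8 kinesins were called, all lower, 6 of them mitotic and 1 transport, while 25.9% of 7551 genes tested were called. The transport call was lost (0) without trend or robust fitting and with the length trend removed. Leaving out each library gave 1 to 13 kinesin, 1 to 7 mitotic and 0 to 2 transport calls, with medians of −0.61 to −0.52 (mitotic) and −0.34 to −0.14 (transport). With a replicate block, 1 kinesin was called, mitotic and lower, and 0 transport kinesins, while 4.07% of all genes were called. The labels do not say whether same-numbered libraries were handled together. Same-numbered libraries did not deviate together across genes (correlations of −0.171, −0.018 and −0.017), which cannot exclude a pairing. The loss of calls under this pairing says nothing of the size of the changes. The cause of these shifts was not tested. Counting KIF2A as mitotic left 4 calls and a median of −0.62. Depth limits the 10 untested members, which had at most 23 reads per library.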
